A study of Glycyrrhiza uralensis with 24 samples.

Results

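The comparison asks whether genes of the licorice legume Glycyrrhiza uralensis moved differently in roots and in aerial parts between 2 h and 12 h of salt. It was built from 12 of the 24 RNA-seq libraries of the study, chosen by their labels: stems and leaves at 2 h, stems and leaves at 12 h, roots at 2 h and roots at 12 h, with 3 libraries in each group. All 12 came from seedlings labelled as 60 days old and held in a nutrient solution (MS) with 150 mM NaCl, after hydroponic growth. The labels call the treatment a simulated drought and give NaCl as the agent. The control plants, labelled as given distilled water, and the 6 h salt plants are the other 12 libraries. They do not enter the comparison and are shown beside it. No plants without salt were taken at 2 h or 12 h, so time in salt and time of day cannot be told apart. The labels do not say whether a library came from 1 plant or several, so p-values measure the spread between these libraries, which may be technical.

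As background, sodium chloride first lowers the water potential around roots and later loads tissues with sodium and chloride. Roots meet the salt directly, while shoots receive ions and hormone signals such as abscisic acid through the xylem and also close their stomata. Shoots also show strong daily rhythms of photosynthetic and stress genes. The deposited tables name genes only by ID and pair no ID with a gene name, so functions and pathways are not given here and the IDs stand as they are.

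The values are TPM, a share of a library's transcripts corrected for transcript length. The listed IDs held 39.8% to 46% of the TPM scale in the 12 libraries, with 17989 to 19088 IDs above 0, and sequencing depth is unknown. The total of the listed TPM, taken as root minus aerial within a pair of libraries of the same title number, was -16923 ± 6427 (SD, n = 3) at 2 h and -41054 ± 13104 at 12 h. By a two-sided exact permutation test of the pairs that shift reached p = 0.1, and no smaller p can come from 3 against 3. Without gene names the organ labels were set against the libraries themselves. On log2(TPM + 1), correlations were 0.81 to 0.93 between libraries of 1 organ and 0.56 to 0.67 between organs. Aerial 2 h replicate 3 lay nearest to the roots, at 0.64 to 0.67 with the 6 root libraries, where replicates 1 and 2 lay at 0.56 to 0.63. The 18 IDs at 0 in every aerial control and at 10 TPM or more in every root control summed to 98 TPM in that library, 13.1 and 25.4 in the other 2 h aerial libraries, 9.40 to 21.95 at 12 h, and 459 to 1104 in the 6 root libraries. None of the 17 of them that were tested was called in the organ difference. The share called was 0.37% over genes under 1 TPM in aerial parts only. At such a share 17 genes would hold few calls or none, so this count says nothing of root signal in aerial libraries. The mirror list of 48 IDs, at 0 in every root control, summed to 29.4 to 59 TPM in the 6 root libraries and 6195 to 10260 in the aerial ones, and 11 of its 48 were called (22.9%), 6 with a positive organ difference and 5 with a negative one. The share was 1.77% over all genes tested and 7.21% over those under 1 TPM in roots only, whose organ difference is mostly their aerial change.

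From 2 h to 12 h in salt, 284 of 16034 genes tested changed differently in roots and in aerial parts (limma adjusted p under 0.05). That is 1.77% of the genes tested. In 149 of them the root change lay above the aerial change (0.929% of genes tested) and in 135 below it (0.842%). Aerial parts made most of these differences: the aerial change was the larger in size in 263 of the 284 (92.6%, against 63.1% of all genes tested). The 149 fell in aerial parts by a median of 2.32 on the log2(TPM + 1) scale, while their median root change was 0.00, with quartiles of -0.18 and 0.22. The 135 rose in aerial parts by a median of 2.25, with a median root change of -0.02 and quartiles of -0.20 and 0.36. These medians describe genes chosen by the same values and carry no test. In whole organs, a lower level per cell and fewer cells of a type cannot be told apart. The median organ difference over all genes tested was -0.02. Which sign was the more frequent depended on the setting: 209 positive and 253 negative were called with a pseudocount of 5, and 130 and 148 without root 2 h replicate 3. With library pairs of the same number as a block, 461 genes were called, all 284 among them, and with that number as a fixed term 181 were called, of which 151 were among the 284. The count was 181 without aerial 2 h replicate 2, 118 and 176 without aerial 12 h replicates 2 and 3, 166 without root 2 h replicate 1, and 161 and 175 without root 12 h replicates 2 and 3. Without aerial 2 h replicate 3, the library nearest to the roots, it was 284, with 219 genes in common.

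**Figure D1:**
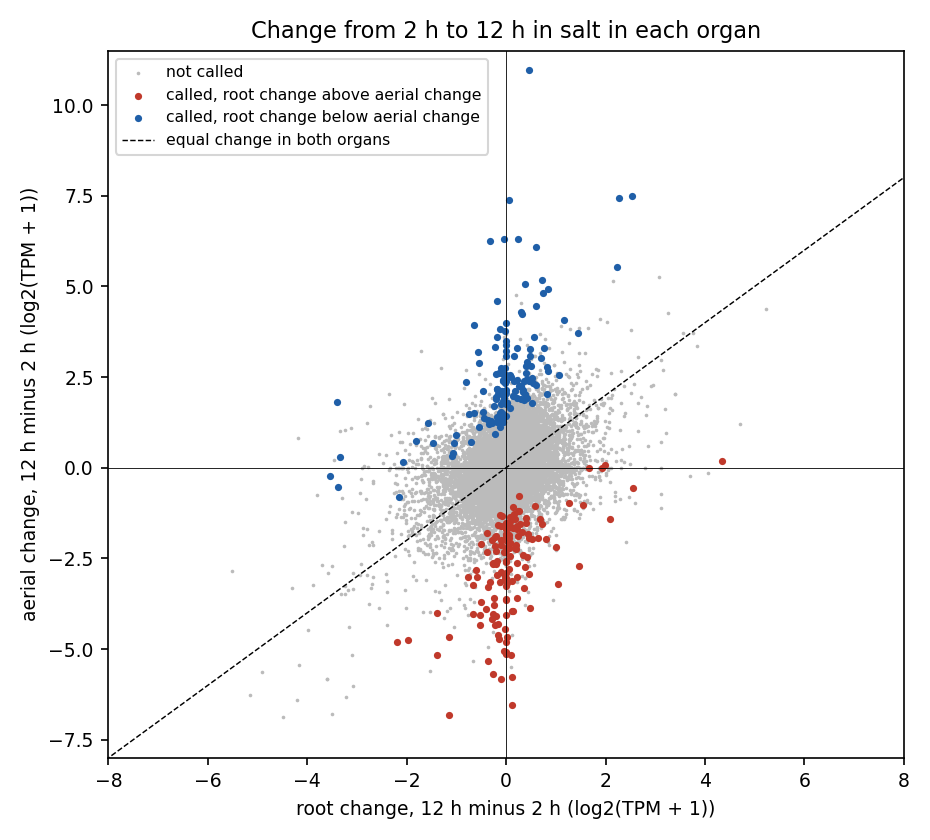
Change from 2 h to 12 h in roots (x axis) and in aerial parts (y axis), both as differences of mean log2(TPM + 1), 1 point per gene tested. The 149 genes whose root change lay above the aerial change (red) and the 135 whose root change lay below it (blue) mostly spread along the vertical line of no root change, away from the dashed line of equal change.

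Glyur000166s00010574, the ID with the lowest p among genes that fell more in aerial parts, stood at 2109, 3194 and 1518 TPM in aerial parts at 2 h and at 15.7, 23.4 and 30 TPM at 12 h. In roots it stood at 3.09, 4.17 and 2.63 TPM at 2 h and at 4.08, 3.49 and 3.39 TPM at 12 h. Aerial levels did not overlap between the times, and the root libraries of both times lay within a narrow range. The organ difference of the change was 6.67 (SE 0.41, limma adjusted p = 0.000108), made of an aerial fall of 6.54 and a root change of 0.13 that was not called (limma adjusted p = 0.966).

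Glyur000472s00019578 was its counterpart among genes that rose more in aerial parts. There it stood at 5.89, 3.51 and 3.95 TPM at 2 h and at 357, 429 and 436 TPM at 12 h. Its root levels were 8.32, 11.2 and 3.26 TPM at 2 h and 4.34, 5.38 and 6.22 TPM at 12 h, and these overlapped. The organs thus held like levels at 2 h, and at 12 h every aerial library was far above every root library. The organ difference was -6.57 (SE 0.48, limma adjusted p = 0.000204).

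The largest difference in size of all genes tested was that of Glyur000380s00017141, at -10.51 (SE 1.09, limma adjusted p = 0.000712). In aerial parts it went from 5.11, 8.05 and 1.75 TPM to 8656, 11669 and 12073 TPM, the largest rise among genes tested. Its root levels were 0.74, 6.42 and 0.93 TPM at 2 h and 10.9, 0.33 and 3.06 TPM at 12 h, with no separation of the times.

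Glyur000785s00024157 was listed at 0 in 2 aerial libraries at 2 h and at 0.80 TPM in the other, and stood at 212, 249 and 196 TPM at 12 h. Its 3 root libraries of 2 h were listed at 0, and those of 12 h stood at 7.96, 3.57 and 3.80 TPM. Roots held 10.96 to 23.35 TPM at 6 h and 13.82 to 29.06 TPM in controls, all above the roots of 12 h. Aerial parts held 79.2 to 116 TPM at 6 h and 53.5 to 146 TPM in controls, all below those of 12 h. The gene was called higher at 12 h than at 2 h in both organs (limma adjusted p = 1.75e-06 in aerial parts and 0.00657 in roots). Its organ difference was also called (limma adjusted p = 0.000309). That last call rests on the pseudocount: with 0.1 in place of 1 the limma adjusted p was 0.101.

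Glyur000072s00008105 had one of the largest aerial falls, from 124, 225 and 88.9 TPM at 2 h to 0.17, 0.18 and 0.25 TPM at 12 h. Roots held little of it, at 2.94, 0.33 and 1.41 TPM and then at 0.05, 0.04 and 0.05 TPM. Every 12 h library lay below every 2 h library in both organs, but the root change of -1.15 was not called (SE 0.41, limma adjusted p = 0.399). The pseudocount of 1 shrinks that root change, since the 12 h root libraries lay far below 1 TPM. The organ difference was 5.68 (SE 0.58, limma adjusted p = 0.000637).

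Roots made the larger change in 21 of the 284 genes, and 17 of the 284 were called in roots on their own. Glyur000012s00000594, the first of those that moved up in roots, was listed at 0 in all 3 root libraries and all 3 aerial libraries at 2 h. At 12 h it stood at 28.5, 21.2 and 11.9 TPM in roots, while 2 aerial libraries were at 0 and the other at 0.50 TPM. It was also at 0 in the 6 controls, and at 6 h only root replicate 2 held any, at 2.10 TPM. Both its organ difference and its root change were called (limma adjusted p = 0.000893 and 0.000176), and leaving out any 1 library kept the first of these calls (limma adjusted p at most 0.00527). No fold change is given for it, since the 2 h libraries are at 0.

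Glyur000197s00010099 moved in opposite directions in the organs. In roots it fell from 57.6, 115 and 60.2 TPM at 2 h to 8.35, 4.30 and 6.05 TPM at 12 h (log2 change -3.41, SE 0.29, limma adjusted p = 0.000312). Aerial parts rose from 9.10, 8.92 and 7.25 TPM to 26.7, 35.6 and 34.7 TPM (1.82, SE 0.29, limma adjusted p = 0.00247). Neither organ overlapped between the times, and the organ that held more of it was the root at 2 h and the aerial part at 12 h in each of the 3 pairs. The organ difference was -5.22 (SE 0.41, limma adjusted p = 0.000206). At 6 h its roots were split, at 189 TPM in replicate 2 and at 12.3 and 12.0 TPM in replicates 1 and 3. Root controls were split as well, at 153, 95.2 and 7.19 TPM, the last of them within the range of roots at 12 h. Aerial controls stood at 40.0, 94.0 and 27.2 TPM.

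This gene and 1 more, Glyur001213s00027159, were the 2 of the 284 called in both organs with opposite signs, and the latter was named after its values were seen. Root levels of Glyur001213s00027159 rose from 3.64, 5.65 and 3.40 TPM to 25.9, 13.4 and 26.1 TPM (log2 change 2.09, SE 0.33, limma adjusted p = 0.0259), and its aerial levels fell from 29.9, 21.0 and 32.8 TPM to 13.4, 10.2 and 6.38 TPM (-1.42, SE 0.33, limma adjusted p = 0.0176). Again the organ with the higher level changed from 2 h to 12 h, here from aerial parts to roots. The controls of the organs overlapped, at 10.9 to 25.2 TPM in aerial parts and 12.4 to 19.0 TPM in roots.

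**Figure D2:**
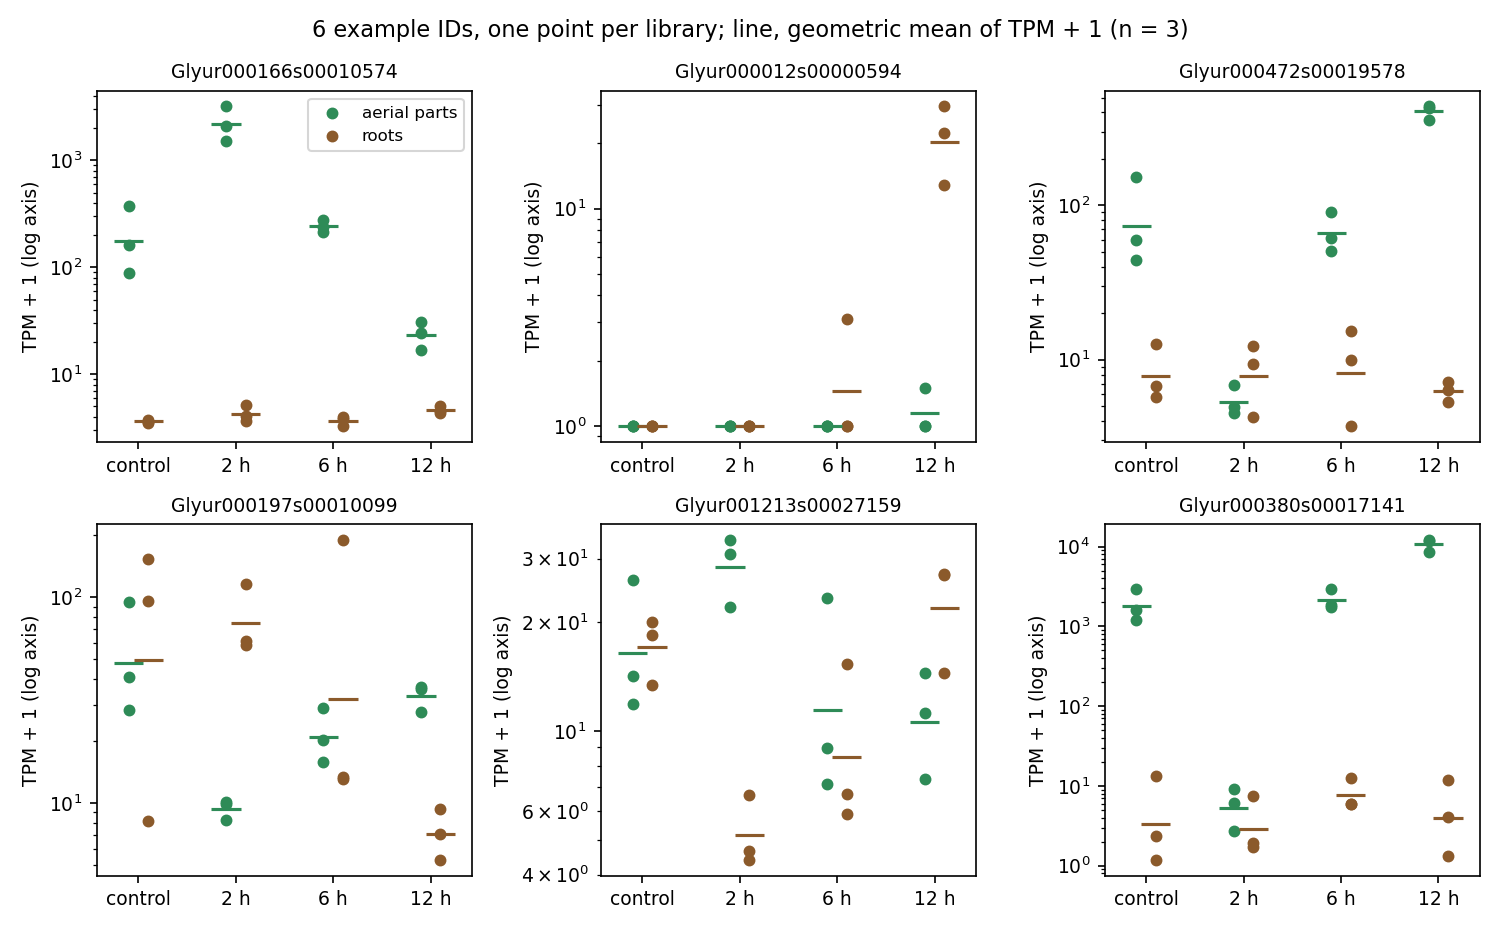
TPM + 1 (log axis) of 6 IDs in aerial parts and roots of controls and at 2, 6 and 12 h in salt, with 1 point per library and lines at the geometric mean of 3 libraries. Glyur000166s00010574, Glyur000472s00019578 and Glyur000380s00017141 moved in aerial parts, Glyur000012s00000594 in roots, and Glyur000197s00010099 and Glyur001213s00027159 in opposite directions.

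A further 5 of the 284 were called in the same direction in both organs but by different amounts, and were also named after their values were seen. Besides Glyur000785s00024157 these were Glyur000253s00020238, which rose by 5.52 in aerial parts and 2.22 in roots, and Glyur000586s00021847 and Glyur000009s00001380, which fell by 4.75 and 4.80 in aerial parts and by 1.97 and 2.19 in roots. Glyur001975s00035596 was the only one of the 5 that moved farther in roots, falling by 2.15 there and by 0.81 in aerial parts. Its 12 h levels were 4.38, 3.94 and 3.19 TPM in roots and 11.6, 14.6 and 10.2 TPM in aerial parts, from 19.3 to 22.8 TPM in all 6 libraries at 2 h. The organ difference of this ID had a limma adjusted p of 0.0271. The call ended in 7 of 12 fits that left out 1 library, without aerial 2 h replicate 2, aerial 12 h replicates 1 or 2, root 2 h replicates 1 or 2, or root 12 h replicates 2 or 3 (limma adjusted p up to 0.0869). With the 6 h libraries also in the fit its limma adjusted p was 0.761, and with the pair number as a fixed term it was 0.0647. That of Glyur000009s00001380, 0.0229 with all libraries, rose to between 0.0512 and 0.0662 in 6 of 12 such fits, without aerial 2 h replicate 2, aerial 12 h replicates 2 or 3, root 2 h replicate 1, or root 12 h replicates 2 or 3. A pseudocount of 0.1 gave Glyur000009s00001380 a limma adjusted p of 0.0978 and Glyur000586s00021847 one of 0.0743, and with the pair number as a fixed term that of Glyur000253s00020238 was 0.0541.

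Most of the 284 genes, 260, were called in aerial parts and not in roots, 10 were called in roots and not in aerial parts, and 7 in neither organ alone. A missed call in roots does not show that a gene stayed level there. Part of the list had little signal in roots: 118 of the 284 had a mean under 1 TPM in roots at both times. They are 7.21% of the 1637 genes tested that were under 1 TPM in roots only. Such genes can pass the filter through their aerial level alone. Their root change is held under 1 in size on the log2(TPM + 1) scale, so their organ difference is mostly their aerial change. The 7.21% is therefore not comparable with the shares of genes present in both organs or low in aerial parts. Of the 12393 genes with at least 1 TPM at either time in each organ, 160 were called (1.29%), and 6 of the 1620 genes under 1 TPM in aerial parts only (0.37%). In the 160 genes present in both organs the pattern was like that of the whole list. These genes are part of that list and were chosen by the same values, so the likeness carries no test. Among them, the 78 with a positive difference had a median aerial change of -2.26 and a median root change of 0.07, and the 82 with a negative one had 2.12 and -0.01. When only the 12393 genes were tested, 125 were called, 65 positive and 60 negative.

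In each of the 284 genes, the 3 root-minus-aerial differences at 12 h lay all above or all below the 3 at 2 h. This held in 20.5% of all genes tested. The same values chose the 284 genes, so this count and those below describe the list and carry no test. Among the 149 genes with a positive difference, the distance between organs was smaller at 12 h than at 2 h in 122. Their median root-minus-aerial level on the log2(TPM + 1) scale went from -3.09 at 2 h to -0.49 at 12 h. Among the 135 with a negative difference the distance was larger at 12 h in 111, and the median level went from -0.15 to -2.67. Members of each set differed in this. Of the 149, the aerial mean was the higher by at least 1 on the log2(TPM + 1) scale in 123 at 2 h and in 59 at 12 h, and the root mean was the higher by that much in 2 and in 29. The organs lay within 1 of each other in 24 of the 149 at 2 h and in 61 at 12 h. Of the 135, aerial parts were the higher by at least 1 in 39 at 2 h and in 114 at 12 h, roots were so in 27 and in 1, and the organs lay within 1 of each other in 69 and in 20. The organ order turned over in all 3 pairs of both times in 62 of the 284. In 33 of these the aerial part was higher at 2 h and the root at 12 h, an order found in 1.12% of all genes tested. In 29 the root was higher at 2 h, found in 1.35% of all genes tested.

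The aerial and root sides of the difference were of unequal size. In aerial parts 1889 genes changed from 2 h to 12 h (11.8% of those tested), 1094 upward and 795 downward (6.82% and 4.96%). In roots 56 changed (0.349%), 21 upward and 35 downward (0.131% and 0.218%). Replicate spread was alike in the organs: the median SD over genes on the log2(TPM + 1) scale was 0.39 and 0.28 in aerial parts at 2 h and 12 h and 0.36 and 0.33 in roots. The variance of the change over genes was 0.855 in aerial parts, where the spread between replicates accounts for 0.268, and 0.378 in roots, where it accounts for 0.284. A change of at least 1 in size was seen in 19.4% of genes in aerial parts and in 8.96% in roots. Rises outnumbered falls less with median-of-ratios scaling (1055 and 974), and falls outnumbered rises without aerial 2 h replicate 1 (934 rises and 1071 falls). The aerial count was 1239 without aerial 2 h replicate 2, 1079 without aerial 12 h replicate 2 and 1472 with only the 6 aerial libraries in the fit. The root count was 30 without root 12 h replicate 2, 30 without root 12 h replicate 3, 32 without aerial 12 h replicate 2, and 12 with only the 6 root libraries in the fit.

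Root changes leaned the same way as aerial ones. Of the 1094 genes that rose in aerial parts, 78.8% had a positive root change, with a median of 0.29 against an aerial median of 1.31. Of the 795 that fell, 69.6% had a negative root change, with medians of -0.24 in roots and -1.79 in aerial parts. Over all genes tested the organs had the same sign in 61.7%, and the changes of the organs correlated across 16034 genes with a Pearson r of 0.37. Genes are not independent replicates, and libraries of the same number in both organs also deviated together from their group means, with correlations of 0.20 to 0.29; its part in this correlation was not tested. For 1622 of the 1889 aerial genes the organ difference was not called. Of the 56 root genes, 28 were called in the same direction in aerial parts, as 9 of the 21 that rose and 19 of the 35 that fell.

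Several of the largest root changes went with a change called in the same direction in aerial parts. An organ difference that was not called does not show that the changes were equal. Glyur000173s00011831, a gene called higher at 12 h in both organs, stood at 3.59, 2.66 and 1.78 TPM in roots at 2 h and at 32.9, 30.7 and 36.5 TPM at 12 h (log2 change 3.25, SE 0.27, limma adjusted p = 0.000312). In aerial parts it went from 8.46, 3.74 and 4.94 TPM to 105, 149 and 119 TPM (4.27, SE 0.27, limma adjusted p = 7.67e-06). At 2 h it was below the controls of its organ in every library, which stood at 33.5 to 43.3 TPM in roots and 54.8 to 88.9 TPM in aerial parts. The organ difference of -1.02 was not called (SE 0.39, limma adjusted p = 0.274). A pseudocount of 5 brought the limma adjusted p to 0.031, and library quality weights brought it to 0.0498.

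Glyur002157s00034198 fell in roots from 419, 120 and 795 TPM to 12.9, 8.72 and 5.78 TPM (log2 change -5.14, SE 0.74, limma adjusted p = 0.0179) and in aerial parts from 49.7, 252 and 290 TPM to 1.38, 0.42 and 1.48 TPM (-6.25, SE 0.74, limma adjusted p = 0.000465). Both organs dropped without overlap, and the organ difference of 1.11 was not called (SE 1.05, limma adjusted p = 0.769). Its root call ended without root 2 h replicate 1, root 12 h replicate 2 or root 12 h replicate 3 (limma adjusted p = 0.0542, 0.0653 and 0.0808), and with only the root libraries in the fit it was 0.108.

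Glyur003440s00037452 also fell in both organs. It fell in aerial parts from 180, 611 and 1127 TPM to 3.40, 3.37 and 3.11 TPM, the largest aerial fall among the genes tested, and in roots from 570, 153 and 990 TPM to 27.2, 19.6 and 12.4 TPM. Its organ difference of 2.38 was not called (SE 1.01, limma adjusted p = 0.344). The widest fall in roots was that of Glyur000312s00022001, from 62.7, 56.9 and 107 TPM to 0 in replicates 1 and 3 and 3.20 TPM in replicate 2 (limma adjusted p = 0.0179). It fell in aerial parts as well, from 9.41, 40.9 and 8.07 TPM to 0, 0.80 and 4.92 TPM (limma adjusted p = 0.0407). The log2 change was -5.51 in roots and -2.85 in aerial parts, and the organ difference of -2.67 was not called (SE 1.12, limma adjusted p = 0.341). The root call was lost without root 2 h replicate 3, root 12 h replicate 1 or root 12 h replicate 3 (limma adjusted p = 0.0603, 0.0546 and 0.0777). It was also lost when the pseudocount was 0.1 (0.0773), with the 6 h libraries in the fit (0.0871) and with only the root libraries in the fit (0.0559).

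The mean of both organs' changes was called for 1625 genes (10.1% of those tested), 942 upward and 683 downward (5.88% and 4.26%). With the library pairs as a block, which lets both organs of a pair deviate together, 1099 were called, 628 upward and 471 downward, all among the 1625. The balance of directions was not stable: it was 812 upward and 816 downward with median-of-ratios scaling, and 857 and 878 without aerial 2 h replicate 1. The count was 922 without aerial 12 h replicate 2 and 1069 without root 12 h replicate 2. Among the risers was Glyur000643s00026922, with aerial levels of 0, 0.29 and 17.9 TPM at 2 h and 78.9, 57.9 and 44.5 TPM at 12 h. Its root levels were 0.49, 0 and 26.8 TPM at 2 h and 286, 93.9 and 79.2 TPM at 12 h. Replicate 3 was the high one at 2 h in both organs. The mean change was called (4.80, SE 0.92, limma adjusted p = 0.00902), and neither organ's own change was (limma adjusted p = 0.0536 in aerial parts and 0.183 in roots). Without the 2 h pair of replicate 2 or the 12 h pair of replicate 2 the mean change was not called (limma adjusted p = 0.0513 and 0.0531).

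The 6 h and control libraries, which played no part in choosing the 284 genes, show where the aerial movement ran. In the 149 genes with a positive difference, the median aerial level over the genes was 5.15, 5.39 and 5.597 on the log2(TPM + 1) scale in the 3 libraries at 2 h, 4.27, 4.40 and 4.51 at 6 h, and 2.49, 2.44 and 2.66 at 12 h. The aerial controls lay at 3.78, 3.77 and 3.72, below every library at 2 h and 6 h and above every library at 12 h. In the 135 genes with a negative difference, the aerial medians were 2.76, 2.43 and 2.41 at 2 h, 4.67, 4.39 and 4.22 at 6 h and 5.18, 5.43 and 5.21 at 12 h, with controls at 4.55, 4.84 and 4.47. Root medians stayed between 0.90 and 1.41 in the first set and between 1.87 and 2.66 in the second over all 12 root libraries. Only 78 of the 149 and 82 of the 135 genes had at least 1 TPM at 2 h or 12 h in each organ. The rest mostly had little signal in roots, which by itself holds root medians low and level. In both sets the aerial control medians thus lay between those at 2 h and 12 h. The sets were chosen on the 2 h and 12 h values, mostly for wide aerial changes, and this choice favours such a position. The control libraries also differ from the salt libraries in medium and titles. Whether salt moved these genes away from the control level was therefore not tested.

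Gene by gene, the aerial control mean lay between the 2 h and 12 h means in 120 of the 149 and 100 of the 135 genes. Together that is 77.5% of the 284, against 71.9% of the 1622 genes called in aerial parts whose organ difference was not called and 30.9% of all genes tested. The 2 h aerial mean was farther from the control than the 12 h mean in 92 of the 149 genes and 85 of the 135. Control libraries carry another pattern of titles and another medium than the salt libraries. A batch or the medium and salt therefore cannot be told apart in these distances. The 2 h and 12 h libraries share the pattern of titles and the medium. The labels do not say whether they share a batch. At 6 h the root-minus-aerial level lay between those at 2 h and 12 h in 137 of the 149 genes and 118 of the 135 (91.9% and 87.4%). It did so in 63.3% of the 1622 genes and in 37.1% of all genes tested. The 284 were chosen for a wide shift of this same level from 2 h to 12 h, which favours a 6 h position between. The 1622 were not, so these shares are no matched baseline and carry no test. The called genes also had the wider aerial changes, with a median size of 2.38 in the 267 called in aerial parts against 1.40 in the 1622.

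**Figure D3:**
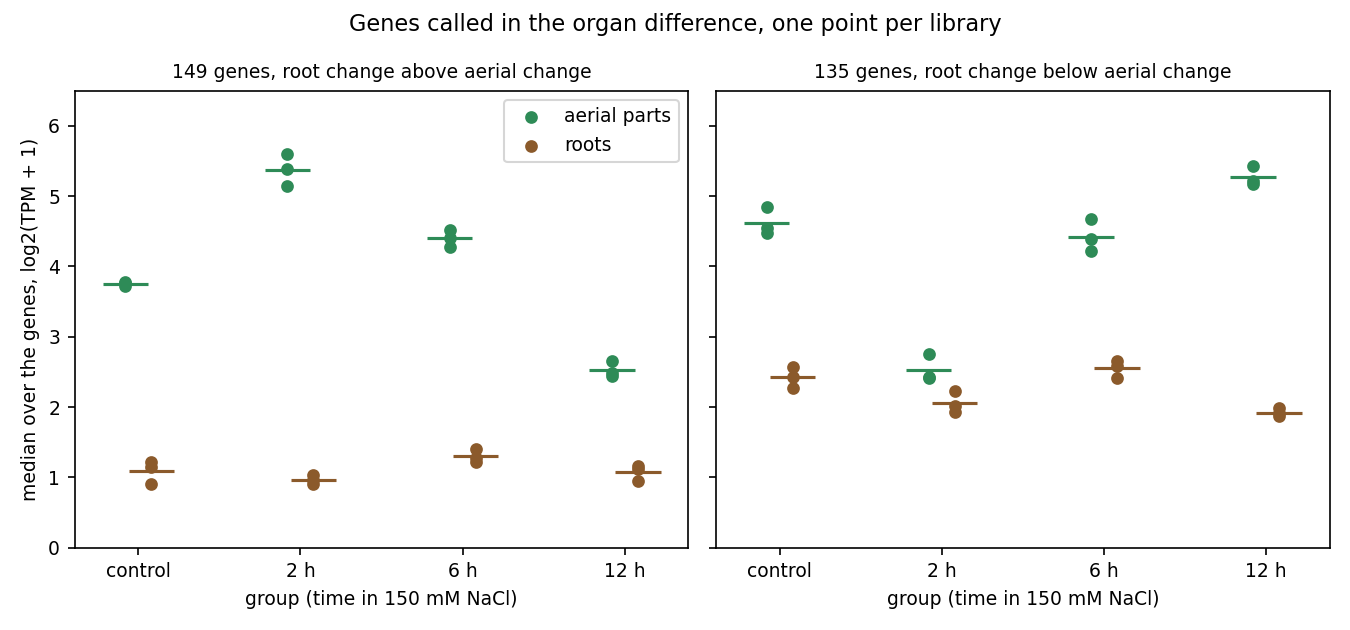
Median log2(TPM + 1) over the 149 genes whose root change lay above the aerial change (left) and the 135 whose root change lay below it (right), with 1 point per library and lines at the mean of 3 libraries. The sets were chosen on the 2 h and 12 h libraries; aerial medians at 6 h lie between these times, and root medians stay below 3 in every group.

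Tested in steps with the 18 salt libraries, few genes passed. The change from 2 h to 6 h differed between organs in 21 of 16522 genes (0.127%), 18 of them with a root change below the aerial one (0.109%) and 3 above it (0.0182%). The change from 6 h to 12 h differed in 54 (0.327%), 30 positive and 24 negative (0.182% and 0.145%). With the library pairs as a block these counts were 120 and 186. The second count was 34 without aerial 6 h replicate 3 and 33 without root 6 h replicate 1. At an unadjusted p under 0.05 there were 1120 and 1283 genes, and 2036 of 16034 for the whole span from 2 h to 12 h.

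**Figure D4:**
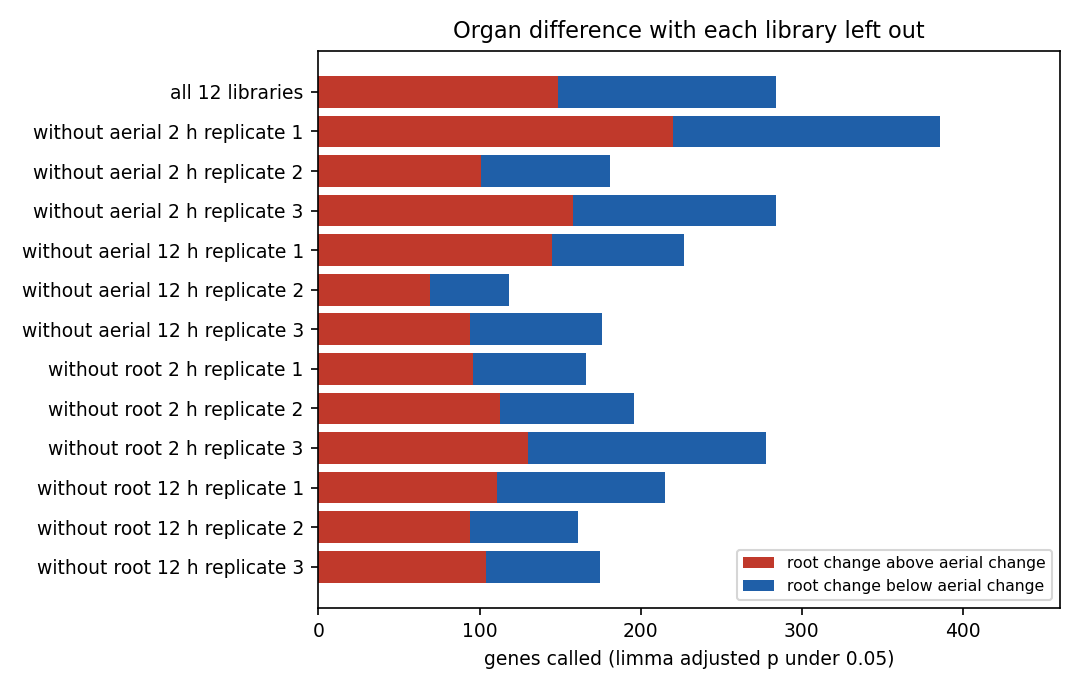
Number of genes called in the organ difference of the 2 h to 12 h change (x axis) with all 12 libraries and with each library left out in turn, split by direction. Counts run from 118 without aerial 12 h replicate 2 to 386 without aerial 2 h replicate 1, around 284 with all libraries.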

How the data were processed

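Total RNA of 24 libraries was sequenced, and the authors deposited 1 table per library with TPM per ID, per the file headers. Tools listed in the submitters' processing notes are edgeR, DESeq2, RSEM, StringTie, HISAT2 and fastp. Their versions, the genome build and the gene models were not given in the sources used here. TPM carry no depth, so no counting interval can be given, and reads shared by near-identical genes may have been split between IDs. Tables hold 38135 rows for 34445 IDs; 2751 IDs have several rows, which were summed (among IDs printed here Glyur000785s00024157, Glyur000072s00008105, Glyur000173s00011831 and Glyur001975s00035596, with 2 rows each). No tables were identical.

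log2(TPM + 1) was fitted in R 4.3.3 by limma 3.58.1 (trended prior variance, no block) on 12 libraries in 4 groups and on the 16034 IDs with a mean of at least 0.5 TPM, and p-values were Benjamini-Hochberg adjusted over all of them (two-sided, 0.05). The organ difference is (root 12 h minus root 2 h) minus (aerial 12 h minus aerial 2 h). Each organ's change and the mean change come from the same fit, which lets organs share 1 estimate of spread per gene. In genes near 0 in roots the root libraries add little to that spread, so p-values of such genes may be too low. The pseudocount shrinks changes of low genes.

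Aerial and root salt libraries share title numbers. Residuals of same-numbered libraries correlated at 0.20 to 0.29 in all 6 pairs, and at no more than 0.03 with any other root library, so the numbers were taken as pairs. They were tried as a random block (within-pair correlation 0.18) and a fixed one.

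Members and lists were chosen with earlier results of these data known. IDs were named by rule: for the organ difference, per sign and per organ with the larger change, the called ID of lowest p with a mean of at least 10 TPM in a group and no overlap of pairs; for the changes, the 2 largest rises and falls that were called, with that level and no overlap of libraries. Gene lists for pathways and organ markers were planned and could not be matched to IDs. Alternatives were the pseudocount, the filter, scaling, libraries in the fit, multi-row IDs, trend, weights, a 2-fold minimum, blocks, and each library or pair left out. Fits on 1 organ and on genes present in both organs were added after the data were seen.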

Additional observations from a re-analysis of the deposited data

Results flagged for a closer look

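Each ID below was taken up because the organ difference of its 2 h to 12 h change was itself called by limma with all 12 libraries. Values are organ differences (root change minus aerial change) on the log2(TPM + 1) scale. Root changes lay above aerial ones in Glyur000166s00010574 (6.67), Glyur000072s00008105 (5.68), Glyur000012s00000594 (4.15), Glyur001213s00027159 (3.52), Glyur000586s00021847 (2.77) and Glyur000009s00001380 (2.60). Root changes lay below aerial ones in Glyur000380s00017141 (-10.51), Glyur000472s00019578 (-6.57), Glyur000197s00010099 (-5.22), Glyur000785s00024157 (-4.95), Glyur000253s00020238 (-3.30) and Glyur001975s00035596 (-1.34). The values of Glyur000012s00000594 and Glyur000785s00024157 depend on the pseudocount, since groups of theirs are listed at 0. Those of Glyur000072s00008105 and Glyur000586s00021847, with group means under 1 TPM, depend on it too. With a pseudocount of 0.1 the value of Glyur000586s00021847 was 3.42. A pseudocount of 0.1 ended the calls of Glyur000785s00024157, Glyur000009s00001380 and Glyur000586s00021847 (limma adjusted p = 0.101, 0.0978 and 0.0743). Leaving out 1 library ended the call of Glyur001975s00035596 in 7 of 12 fits and that of Glyur000009s00001380 in 6 of 12. With the pair number as a fixed term, Glyur001975s00035596 and Glyur000253s00020238 were not called (limma adjusted p = 0.0647 and 0.0541).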

How the results depend on the processing

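The organ difference called 284 genes. It called 137 with a pseudocount of 0.1, 462 with a pseudocount of 5 and 647 with library quality weights. With the replicate block it called 461, and with a fixed replicate block 181. When only the 12393 genes present in both organs were tested, 125 were called, where the main fit called 160. Across fits without 1 library or 1 pair the count was 91 to 386. Its other settings, among them both scalings and both filters, stayed within 1.5 times. The aerial count of 1889 became 3414 with library weights, and 836 to 2071 without a library or pair. The root count of 56 became 86 with library weights, 30 with 18 libraries in the fit, 12 with only the root libraries and 30 to 67 without a library or pair. The count of the mean change, 1625, became 2492 with library weights, 851 with a 2-fold minimum and 562 to 1735 without a library or pair. The step from 2 h to 6 h gave 21 genes, 120 with the block and 17 to 30 without a 6 h library; that from 6 h to 12 h gave 54, 186 and 33 to 72. The cause of these shifts was not tested. Over 29 results for single IDs no direction turned among called values: 881 of 936 values kept their side of the threshold, 53 calls were lost and 2 gained. The replicate block changed no call of a named ID when random, and ended 2 when fixed. TPM give no depth, so precision rests on 3 libraries a group.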
